A study of Canis lupus familiaris with 6 samples.

Results

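The genes of DNA replication and of the G1/S transition were followed in RasV12 cells, a line derived from dog kidney epithelium (MDCK, Madin-Darby canine kidney) in which tetracycline switches on an activated Ras fused to GFP. The list held 48 genes, taken by their names in the array's own annotation, and 47 of them had a probe among the 43603 probes of the array. A gene with several probes was represented by the brightest, that is, the probe with the highest mean log2 signal over the 6 arrays. After 24 h with tetracycline, cells were sorted by their GFP and total RNA was measured on an Agilent canine array in 1 colour, in 3 samples of MDCK-pTR GFP-RasV12 cells from single culture (called alone here) and 3 from their mixed culture with normal MDCK cells. The comparison asks how the presence of normal neighbours alters expression in RasV12-transformed cells. The label of mixed replicate 2 gives 100 normal cells per RasV12 cell, whereas the labels of the other mixed samples and the methods give 10. The extraction text of all samples names cells that also carry a β-catenin mutant, which the titles and the methods do not give for these arrays. Whether the replicates were separate dishes is not stated, so p-values measure the spread between these samples, which may be technical. Each slide carried arrays of 1 culture condition, so an effect of the slide cannot be told apart from that of the culture.

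Before S phase, the origin recognition complex, CDC6 and CDT1 load the ring-shaped MCM helicase onto DNA, and CDC45 and the GINS complex later turn it into an active helicase. Cyclin D with CDK4, and then cyclin E with CDK2, release E2F factors from the retinoblastoma protein, and E2F factors drive transcription of many of these same genes. MDCK cells are widely used to study how normal epithelial cells confront transformed neighbours, and Ras signalling is known to act on the cell cycle through cyclin D1.

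Signals well above background made up 60.8% to 66.4% of an array's probes. All 7 kidney epithelial markers with a probe, CDH1, CDH16 and EPCAM among them, were well above background on all 6 arrays. Of 11 markers of fibroblasts, endothelium and leukocytes, PDGFRA, CDH5 and PTPRC were well above background on none of the arrays and 7 were so on all 6. The 11 summed to 7.71 to 9.96 times the 75th percentile signal in cells alone and 8.48 to 10.2 times in mixed culture. Of the 11, 8 were tested and 0 called, beside 11.2% of all tested probes. Of the 8 differences 7 were positive and 1 negative, with a median of 0.13 on the log2 scale. The mixed arrays lay wholly above for 4 of the 8, beside 17.8% of all tested probes. Of 10 spike-in controls 8 were well above background, and all 8 were higher on the mixed slide, by 0.10 to 0.24 on the log2 scale.

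Few of the replication and G1/S genes differed between the 2 cultures beyond the test's threshold. Values are log2 signals relative to the array's 75th percentile, and a difference is mixed culture minus culture alone on that scale. A gene was called where limma's test, adjusted over all 26535 probes tested, gave an adjusted p under 0.05. The fit held no block for the replicate number. CCNE2 and CDT1 were called higher in mixed culture and CCND1 was called lower, and the other 44 genes were not called. These 3 calls are 6.38% of the 47 genes, whereas 11.2% of all tested probes were called, 5.5% higher and 5.72% lower. The median difference over the 47 genes was 0.02, with 25 positive and 22 negative, against -0.00 over all tested probes. An unadjusted p under 0.05 (limma) was reached by 9 of the 47 genes (19.1%), beside 31.4% of all tested probes. The mixed arrays lay wholly above the arrays of cells alone for 8 genes and wholly below for 3, which makes 23.4% of the genes beside 37.2% of all tested probes (17.8% above and 19.4% below). For each of these genes an exact permutation test gave a two-sided p of 0.1, the smallest that 3 arrays against 3 allow. The calls depended on single arrays: without alone replicate 2, alone replicate 3, mixed replicate 2 or mixed replicate 3, 0 of the 47 genes and 24, 7, 9 and 12 of all probes were called. With the replicate number as a block, CCNE2 and CDT1 were called and CCND1 was not (adjusted p = 0.0633, limma), beside 10.6% of all tested probes called. In such pooled RNA, a change in the share of cells in S phase and a change in transcript per cell cannot be told apart.

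**Figure D1:**
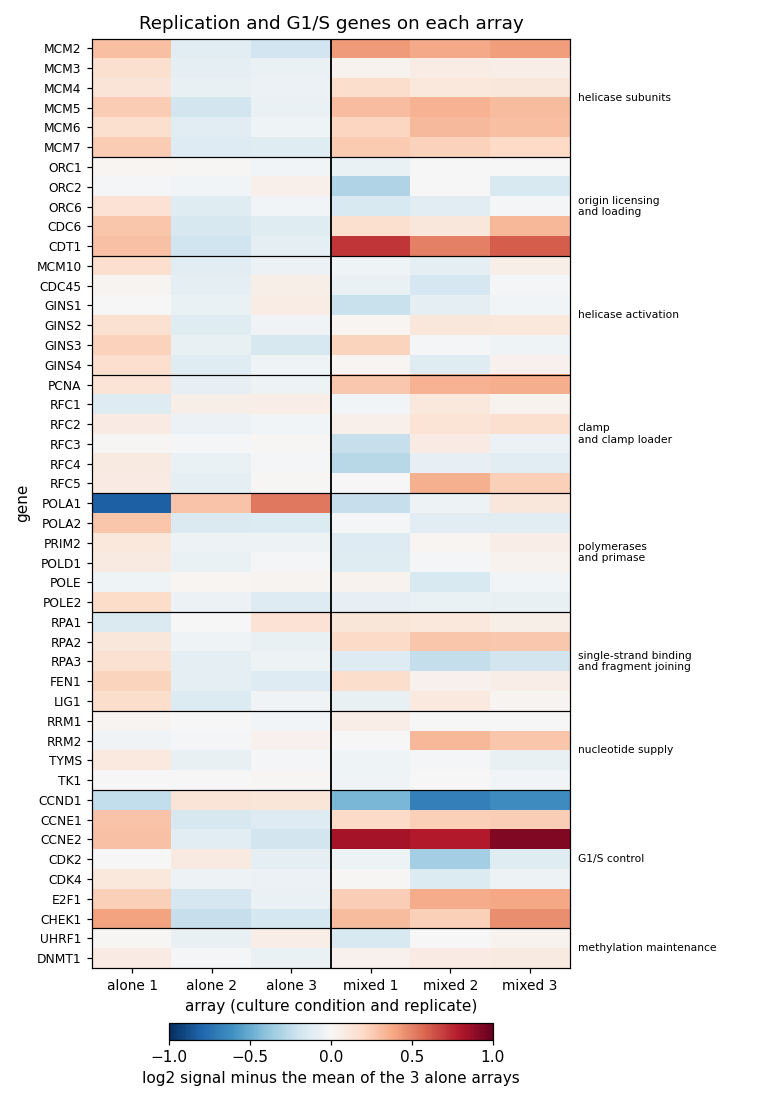
Log2 signal of the 47 genes (rows, grouped by role) on each of the 6 arrays (columns), minus the mean of the 3 arrays of cells alone, from blue (lower) to red (higher). CCNE2, CDT1 and CCND1 have the deepest colours in mixed culture, and alone replicate 1 is higher than alone replicates 2 and 3 in 35 of the 47 rows.

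Among the regulators of the G1/S transition, the 2 E-type cyclins and cyclin D1 gave different pictures. CCNE2 encodes cyclin E2, a partner of CDK2 at the entry into S phase. It stood at -1.67, -2.06 and -2.14 on the arrays of cells alone and at -1.13, -1.16 and -1.03 on the mixed arrays. All 3 mixed arrays were higher than every array of cells alone, and the highest array of cells alone was replicate 1. The means were -1.96 ± 0.25 (SD, n = 3) alone and -1.11 ± 0.07 (SD, n = 3) mixed, a difference of 0.85 (SE 0.13, adjusted p = 0.0193, limma), or 1.80-fold. CCNE1, which encodes cyclin E1, stood at 1.79, 1.35 and 1.38 alone and at 1.70, 1.75 and 1.75 mixed. Alone replicate 1 exceeded every mixed array, so the groups overlapped, and the difference of 0.23 (SE 0.13) was not called (adjusted p = 0.278, limma). A second, dimmer CCNE1 probe differed by -0.02.

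CCND1 encodes cyclin D1, the partner of CDK4 early in G1 and a known output of Ras-MAPK signalling. It stood at 3.29, 3.67 and 3.65 on the arrays of cells alone and at 3.08, 2.85 and 2.91 on the mixed arrays. The mixed arrays were all below the arrays of cells alone, of which replicate 1 was the lowest. The means were 3.54 ± 0.22 (SD, n = 3) and 2.95 ± 0.12 (SD, n = 3), a difference of -0.59 (SE 0.13, adjusted p = 0.0366, limma), so CCND1 was 1.50-fold lower in mixed culture. With the replicate number as a block the difference was the same and the adjusted p was 0.0633 (limma), short of the threshold, while 10.6% of all tested probes were called in that fit. Other Ras-MAPK output genes went in both directions. The 11 with a probe besides CCND1 summed to 116 to 119 times the 75th percentile signal in cells alone and 101 to 115 times in mixed culture, but DUSP6, which was not called (-0.19, adjusted p = 0.205, limma), made up 86.9 to 92.1 and 71.3 to 86.5 of these sums. Without DUSP6 the other 10 summed to 25.8 to 28.9 alone and 26.3 to 29.5 mixed, which overlap. Of 11 tested genes of that list, CCND1 included, FOSL1 (-0.52), EPHA2 (-0.71) and CCND1 were called lower and EGR1 (0.77) higher, beside 5.72% of all tested probes called lower and 5.5% higher. The median of the list was -0.49, and it was -0.17 with normexp and -0.29 without mixed replicate 1. Without alone replicate 2, alone replicate 3, mixed replicate 2 or mixed replicate 3, limma's test called 0 of these genes. Their part in the CCND1 result was not tested.

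The probes behind these opposite values are 60 bases long, and each is given here with its annotated position in canFam3. The CCNE2 probe lies on the minus strand at chr29:39535606-39535665 and is annotated to the transcript ENSCAFT00000014969. The CCND1 probe lies on the minus strand at chr18:48505005-48505064 and is annotated to NM_001005757. The files do not name the exon of either.
CCNE2: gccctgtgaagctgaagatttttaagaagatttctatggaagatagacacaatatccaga
CCND1: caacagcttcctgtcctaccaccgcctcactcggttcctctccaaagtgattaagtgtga

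E2F1, the transcription factor released when the retinoblastoma protein is phosphorylated, stood at -1.73, -2.13 and -2.03 alone and at -1.72, -1.59 and -1.58 mixed. All mixed arrays were higher, with mixed replicate 1 just above alone replicate 1. The difference of 0.33 (SE 0.12) was not called (adjusted p = 0.113, limma). CHEK1, a checkpoint kinase that restrains origin firing and mitosis, stood at 0.26, -0.37 and -0.32 alone and at 0.17, 0.10 and 0.32 mixed. Its groups overlapped because alone replicate 1 lay with the mixed arrays, and the difference of 0.34 (SE 0.18) was not called (adjusted p = 0.238, limma). CDK2 and CDK4, the kinases that cyclins E and D activate, differed by -0.17 and -0.06 and were not called.

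**Figure D2:**
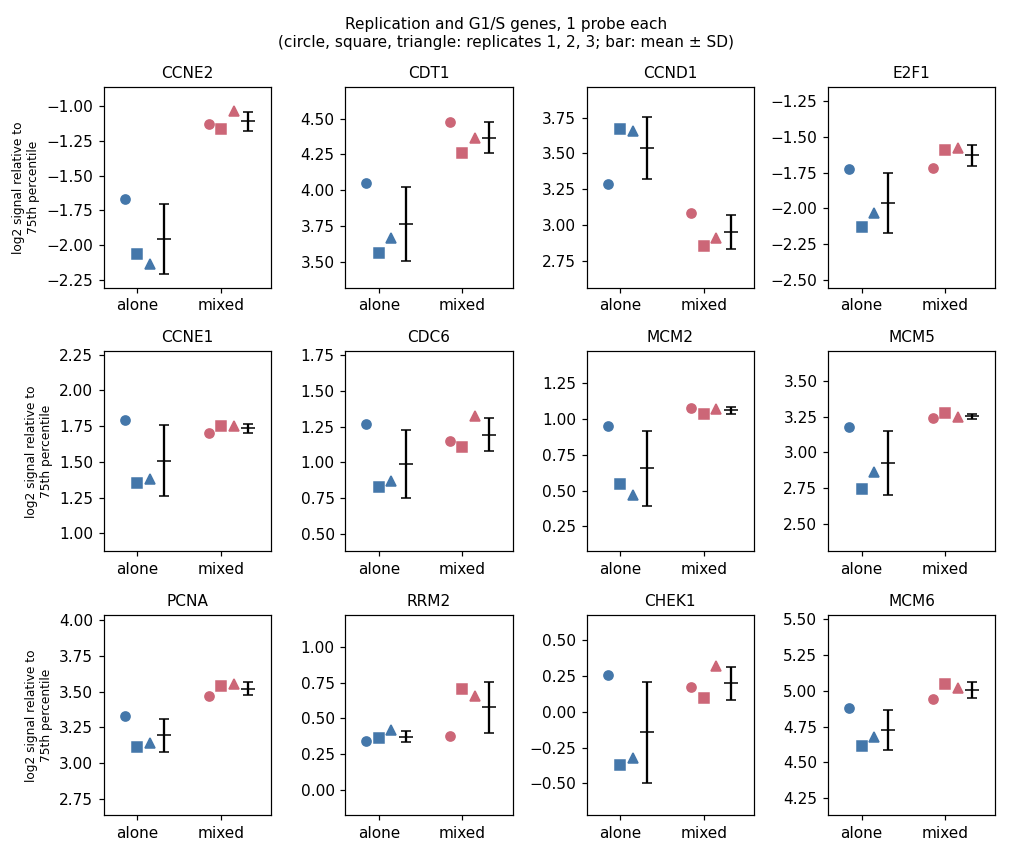
Log2 signal relative to the 75th percentile (vertical axis, a span of its own for each gene) of 12 genes in cells alone and in mixed culture, with circles, squares and triangles for replicates 1, 2 and 3 and bars for the mean ± SD. The groups separate for CCNE2, CDT1 and CCND1, which were called, and for E2F1, MCM2, MCM5, MCM6 and PCNA, which were not. For CCNE1, CDC6 and CHEK1 they overlap through alone replicate 1, and for RRM2 through mixed replicate 1.

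Of the 5 licensing genes, CDT1 was called higher and the others were not called, beside 5.5% of all tested probes called higher and 5.72% lower. CDT1 brings the MCM helicase to origins and is destroyed once S phase begins. It stood at 4.05, 3.56 and 3.67 on the arrays of cells alone and at 4.47, 4.26 and 4.37 on the mixed arrays. The mixed arrays were all higher, and among cells alone replicate 1 was nearest to them. The means were 3.76 ± 0.26 (SD, n = 3) and 4.37 ± 0.11 (SD, n = 3), a difference of 0.61 (SE 0.14, adjusted p = 0.0422, limma), or 1.52-fold. The CDT1 call was kept in 7 of 15 alternative settings. CDC6, the ATPase that acts with CDT1 in loading, stood at 1.27, 0.83 and 0.87 alone and at 1.15, 1.10 and 1.32 mixed. Alone replicate 1 lay above mixed replicates 1 and 2, and the difference of 0.20 (SE 0.13) was not called (adjusted p = 0.347, limma). The second CDC6 probe differed by 0.25 and was not called. The origin recognition subunits ORC1, ORC2 and ORC6 differed by -0.02, -0.15 and -0.09, none of them called at the brightest probe.

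All 6 subunits of the MCM helicase had positive differences, from 0.06 to 0.41 with a median of 0.26. None was called, beside 11.2% of all tested probes. The mixed arrays lay wholly above for 3 of the 6, beside 17.8% of all tested probes. Alone replicate 1 was the highest of its group for all 6, beside 46.8% of all tested probes. MCM2 stood at 0.95, 0.55 and 0.47 on the arrays of cells alone and at 1.08, 1.03 and 1.07 on the mixed arrays. The mixed arrays were all higher and close to each other, with SDs of 0.26 alone and 0.02 mixed (n = 3 each). The difference of 0.41 (SE 0.13) had an adjusted p of 0.0952 (limma). MCM5 stood at 3.18, 2.74 and 2.86 alone and at 3.24, 3.27 and 3.24 mixed. Again the mixed arrays were all higher and replicate 1 was the highest of cells alone, with a difference of 0.32 (SE 0.12, adjusted p = 0.122, limma). MCM6 also separated, by 0.28 (adjusted p = 0.0968, limma), whereas the groups overlapped for MCM7 (0.23), MCM4 (0.13) and MCM3 (0.06). Second probes for MCM4, MCM6 and MCM7 had the same sign, at 0.17, 0.12 and 0.27, and that of MCM3 the opposite sign, at -0.08. The MCM7 probes overlap in position by all but a few bases and are not separate evidence.

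The MCM2 and E2F1 probes reach the end of the coding sequence, and the last codon, a stop codon in the annotated orientation, is shown in capitals. The MCM2 probe lies on the plus strand at chr20:1701888-1701947 and the E2F1 probe on the minus strand at chr24:22896232-22896291, both in canFam3.
MCM2: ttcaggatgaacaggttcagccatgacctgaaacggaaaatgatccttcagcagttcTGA
E2F1: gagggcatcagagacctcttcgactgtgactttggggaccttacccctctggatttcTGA

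At their brightest probes, the 6 genes of helicase activation showed no call and no separated groups. Of all tested probes, 11.2% were called and 37.2% had separated groups. CDC45, which rides with the MCM ring in the active helicase, differed by -0.08, and MCM10, needed for origin firing, by -0.03. The GINS subunits GINS1, GINS2, GINS3 and GINS4 differed by -0.12, 0.08, 0.05 and -0.02. GINS3 had 2 probes that share 59 of their 60 bases, given in capitals and shifted by 1 base, and these differed by 0.05 and 0.29, neither called. These near-identical probes thus gave differences 0.23 apart, and the mixed arrays lay wholly above at the dimmer probe only.
GINS3 brighter probe: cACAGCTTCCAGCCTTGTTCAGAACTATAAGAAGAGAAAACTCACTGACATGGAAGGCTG
GINS3 dimmer probe: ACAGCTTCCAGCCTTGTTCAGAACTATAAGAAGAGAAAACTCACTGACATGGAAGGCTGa

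PCNA, the sliding clamp that holds polymerases on DNA, was the gene closest to the threshold among those not called. It stood at 3.33, 3.11 and 3.14 on the arrays of cells alone and at 3.47, 3.54 and 3.56 on the mixed arrays. All mixed arrays were higher, and the difference was 0.33 (SE 0.08, adjusted p = 0.0548, limma). The second PCNA probe, much dimmer and spanning a splice junction, had the opposite sign at -0.16 (adjusted p = 0.185, limma), and its mixed arrays lay wholly below. The 5 subunits of the clamp loader, RFC1 to RFC5, differed by 0.04, 0.12, -0.07, -0.16 and 0.20, none of them called, beside 11.2% of all tested probes. RFC4 was 1 of the 3 genes whose mixed arrays lay wholly below.

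The 6 polymerase and primase genes had differences from -0.08 to -0.02, and none was called, beside 11.2% of all tested probes. At the brightest probes the shared sign rested on alone replicate 1. Without it POLA2 (0.06), PRIM2 (0.04), POLE2 (0.02) and POLD1 (0.01) were positive, POLE was at -0.07 and POLA1 at -0.46 (adjusted p = 0.0560, limma). Dimmer probes of PRIM2 and POLE2 differed by -0.47 and -0.26, and by -0.50 and -0.36 against alone replicates 2 and 3. The dimmer PRIM2 probe was called lower (adjusted p = 0.0200, limma). POLD1 and POLE, the catalytic subunits of the lagging and the leading strand polymerase, differed by -0.03 and -0.05, and POLE2 by -0.07. The primase subunit PRIM2 and the polymerase alpha subunit POLA2 differed by -0.02 and -0.08. POLA1, the catalytic subunit of polymerase alpha, described here after its values were seen, had the widest spread of the 47 genes. It stood at -3.90, -2.80 and -2.56 alone and at -3.32, -3.14 and -2.97 mixed. Alone replicate 1 was far below the other arrays of its group, the mixed arrays lay between, and the 95% confidence interval of the difference of -0.06 ran from -0.86 to 0.75. PRIM1 was the gene with no probe under its own name. Its 3 probes carry an accession and are described as PRIM1 in the annotation, and they differed by 0.09, 0.03 and 0.08, none called.

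Of the proteins that cover and join the new strands, RPA2, a subunit of the single-strand binding complex, differed by 0.25 (adjusted p = 0.0922, limma), and its mixed arrays were all higher. A second, dimmer RPA2 probe differed by 0.02 (adjusted p = 0.852, limma), with overlapping groups. RPA3, another subunit, differed by -0.19 with all mixed arrays lower (adjusted p = 0.213, limma). The 2 RPA3 probes lie on chromosomes 14 and 11, so which copy each reports is uncertain. RPA1, the flap nuclease FEN1 and the ligase LIG1 differed by 0.09, 0.09 and 0.02, with overlapping groups.

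Of the 4 enzymes that supply nucleotides, none was called, beside 11.2% of all tested probes. RRM2, the S phase subunit of ribonucleotide reductase, stood at 0.34, 0.36 and 0.42 alone and at 0.38, 0.70 and 0.65 mixed. Mixed replicates 2 and 3 were higher than all arrays of cells alone and mixed replicate 1 lay among them, with a difference of 0.20 (SE 0.10, adjusted p = 0.226, limma). Its partner RRM1 differed by 0.02. The thymidylate genes TYMS and TK1 differed by -0.04 and -0.02, with 95% confidence intervals from -0.22 to 0.14 and from -0.17 to 0.13. UHRF1 and DNMT1, which copy DNA methylation onto the new strand, differed by -0.04 and 0.07, neither called.

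**Figure D3:**
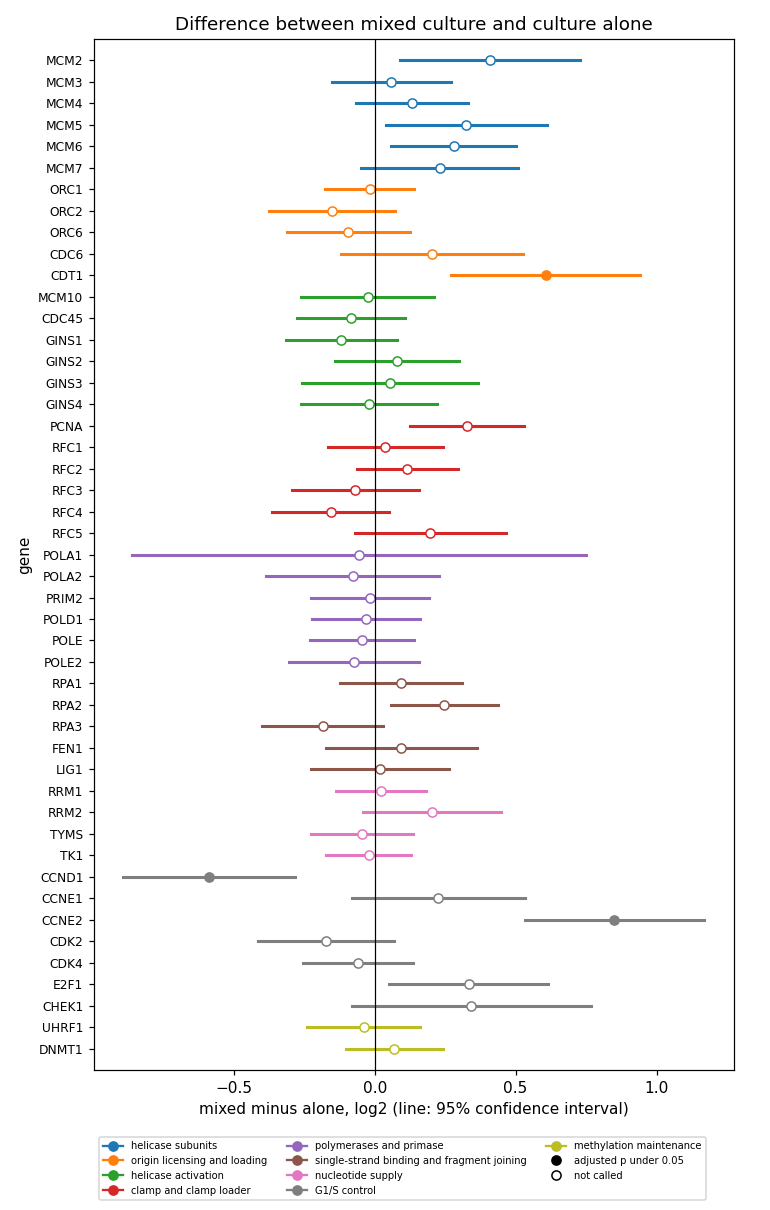
Mixed minus alone difference on the log2 scale (horizontal axis) for the 47 genes (vertical axis), with lines for the 95% confidence interval, colours for the role and filled points for an adjusted p under 0.05. CCNE2 (0.85) and CDT1 (0.61) are filled to the right of 0 and CCND1 (-0.59) to the left, in the fit without a replicate block.

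The choice of probe mattered for some genes. The 47 genes had 73 probes in all, every one of them tested, and 20 genes had more than 1. The probes of a gene had the same sign in 14 of these 20 genes and opposite signs in 6 (CCNE1, MCM3, PCNA, RFC1, RPA1 and TK1). The median spread between probes of a gene was 0.17. Of the 73 probes 2 were called higher and 3 lower, beside 5.5% and 5.72% of all tested probes. Beside the probes of CCNE2, CDT1 and CCND1, dimmer probes of ORC2 (-0.41, adjusted p = 0.0449, limma) and PRIM2 (-0.47, adjusted p = 0.0200, limma) were called lower while the brighter probes of these genes were not.

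Alone replicate 1 stood apart from the other arrays of cells alone in most of these genes. It was the highest of its group in 35 of 47 genes (74.5%), beside 46.8% of all tested probes. Its signal exceeded the mean of alone replicates 2 and 3 in 37 of the 47 genes, by a median of 0.17, whereas the median over all tested probes was 0.03. The gap was widest on the high side for CHEK1 (0.61), MCM2 (0.45) and CDT1 (0.44), and on the low side for POLA1 (-1.22) and CCND1 (-0.37). For CCNE2 (0.43), CCNE1 (0.43), CDC6 (0.41), MCM5 (0.38) and E2F1 (0.35), the same array was on the side of the mixed arrays. It was also high for POLA2 (0.42), POLE2 (0.28), MCM10 (0.26) and GINS4 (0.26). For these the mixed mean exceeded that of alone replicates 2 and 3 by only 0.06, 0.02, 0.06 and 0.07.

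Without alone replicate 1, 12 of the 47 genes were called higher and 1 lower. These calls are 27.7% of the genes, beside 26.4% of all probes tested in that fit (12.6% higher and 13.8% lower). The genes called higher were MCM2, MCM5, MCM6 and MCM7 of the helicase, CDC6 and CDT1 of licensing, the clamp PCNA, RPA2, and the regulators CCNE1, CCNE2, E2F1 and CHEK1, and the gene called lower was CCND1. MCM2 differed by 0.56 (SE 0.06, adjusted p = 0.00657, limma), CHEK1 by 0.55 (SE 0.09, adjusted p = 0.0140, limma) and E2F1 by 0.45 (SE 0.08, adjusted p = 0.0158, limma). In this fit the genes of helicase activation, the polymerases, the nucleotide enzymes and the methylation genes still gave 0 calls. The median over the 47 genes was 0.06. The fit sets 2 arrays against 3. For each gene called in it, alone replicate 1 was on the side of the mixed arrays, so leaving that array out widened the difference. These p-values are therefore no separate support for the differences. Without mixed replicate 1 only CCNE2 of the 47 genes was called, and without any of the other 4 arrays 0 were.

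**Figure D4:**
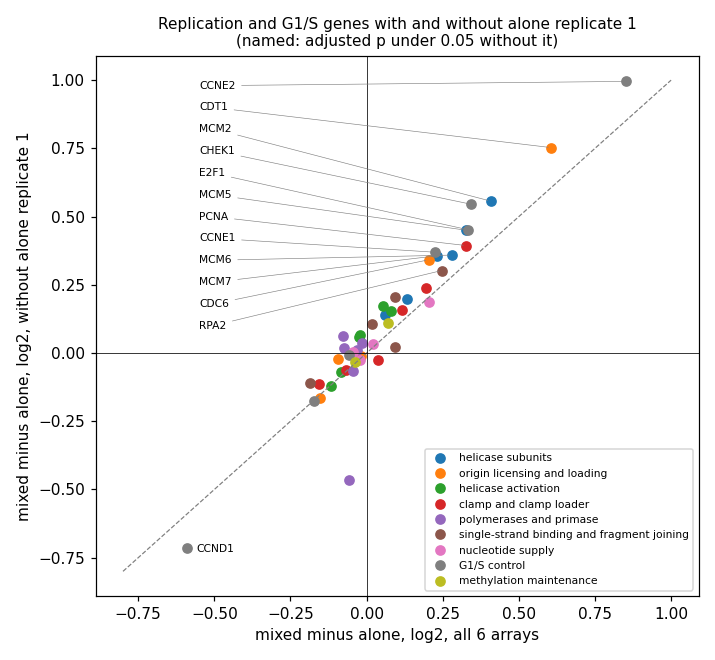
Mixed minus alone difference on the log2 scale from all 6 arrays (horizontal axis) and without alone replicate 1 (vertical axis) for the 47 genes, coloured by role, with the dashed line for equal values and names for the 13 genes with an adjusted p under 0.05 without it. MCM2 moves from 0.41 to 0.56 and CCNE2 from 0.85 to 1.00.

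Other genes of the same pathways were followed through lists set down beside the 47. Each was read at its brightest probe only, and the dimmer probes, as of ORC4 (2 probes in all) and CDKN1A (3), are not given. Of 28 further replication genes tested, 0 were called higher and 1 lower, with a median of -0.03, beside 11.2% of all tested probes called in either direction (5.5% higher and 5.72% lower). The one called was ORC4, an origin recognition subunit, at 1.11, 1.23 and 1.26 alone and 0.78, 0.86 and 0.85 mixed, a difference of -0.37 (adjusted p = 0.0328, limma). Of 22 further G1/S regulators, 2 were called higher and 0 lower, with a median of 0.02. E2F8, a repressive E2F factor, stood at -2.89, -3.29 and -3.21 alone and at -2.37, -2.18 and -1.99 mixed, a difference of 0.95 (adjusted p = 0.0184, limma). RB1, which encodes the retinoblastoma protein, stood at -3.25, -3.35 and -3.34 alone and at -2.78, -2.85 and -2.90 mixed, a difference of 0.47 (adjusted p = 0.0193, limma). For these 3 genes the groups did not overlap, as for 37.2% of all tested probes.

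The inhibitors of cyclin-dependent kinases with a probe were 4, of which 1 was called higher and 1 lower, with a median of 0.36. Of all tested probes, 5.5% were called higher and 5.72% lower. CDKN2B, which encodes the CDK4 inhibitor p15, stood at 2.07, 1.15 and 1.12 alone and at 3.04, 2.46 and 2.46 mixed. All mixed arrays were higher, with replicate 1 the highest in both cultures, and the difference was 1.21 (SE 0.29, adjusted p = 0.0465, limma). CDKN1A, which encodes the CDK2 inhibitor p21, stood at 6.74, 7.30 and 7.15 alone and at 6.28, 6.21 and 6.11 mixed. All mixed arrays were lower, and the difference was -0.86 (SE 0.15, adjusted p = 0.0233, limma). Of 18 mitosis genes, such as CDK1, PLK1 and TOP2A, limma's test called 0, beside 11.2% of all tested probes. An unadjusted p under 0.05 (limma) was reached by 0 of the 18, beside 31.4% of all tested probes, and their median was -0.01. Alone replicate 1 was the highest of its group in 16 of these 18 genes (88.9%), beside 46.8% of all tested probes.

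Without alone replicate 1, the mitosis genes still gave 0 calls, with a median of 0.05. In that fit 5 of the 28 further replication genes were called higher: the chromatin assembly subunit CHAF1B, the alternative clamp loader subunits CHTF18 and DSCC1, the CDT1 inhibitor GMNN and the fork protein TIMELESS. Of all probes tested in that fit, 12.6% were called higher and 26.4% in either direction. ORC4 was again called lower. Of the 22 further G1/S regulators, E2F2, E2F8, RB1 and TFDP1 were called higher and the phosphatase CDC25A lower. Without alone replicate 2, alone replicate 3, mixed replicate 2 or mixed replicate 3, limma's test called 0 genes of these 4 lists, and without mixed replicate 1 ORC4 and CDKN2B were no longer called.

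**Figure D5:**
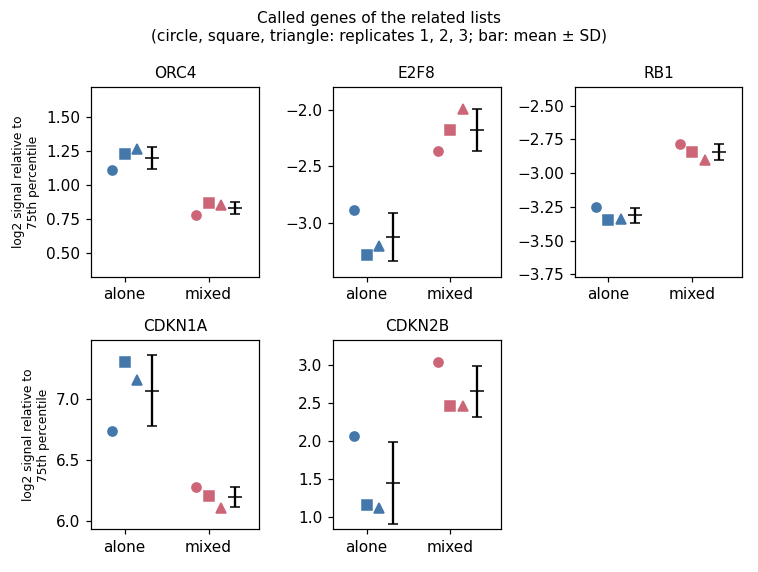
Log2 signal relative to the 75th percentile (vertical axis, a span of its own for each gene) of the 5 called genes of the related lists in cells alone and in mixed culture, with circles, squares and triangles for replicates 1, 2 and 3 and bars for the mean ± SD. E2F8, RB1 and CDKN2B are higher on all 3 mixed arrays, and ORC4 and CDKN1A are lower on all 3.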

How the data were processed

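The authors deposited, for each array, Agilent Feature Extraction output with a processed intensity per spot, corrected for background, and a table of log2 values, which equal the log2 processed signal minus a constant near each array's 75th percentile. No normalization is given in the sources used here. From the scanner output, control spots and flagged outliers were dropped, repeated spots of a probe averaged, and the 75th percentile of each array over 43603 probes subtracted on the log2 scale (592 to 700 units of intensity). Testing required a signal well above background on every array of 1 group or both (26535 probes). Groups came from the labels. The comparison of the cultures used lmFit and eBayes (two-sided; limma 3.58.1, R 4.3.3), and p-values were adjusted over all tested probes by Benjamini-Hochberg with a threshold of 0.05. Tables were handled with Python 3.11.15, pandas 2.3.3, numpy 2.4.6 and scipy 1.17.1, and figures with matplotlib 3.10.9. Simulated data served to test the fit. The number of arrays limits the precision. Positions are the array annotation's (canFam3).

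The 47 genes and the other lists were chosen with earlier results of these data known. Values on every array are given for called genes, for MCM2, MCM5, CDC6, CDT1, PCNA, RRM2, CCND1, CCNE1, CCNE2 and E2F1, and for the 3 largest differences not called (MCM2, CHEK1 and E2F1). From each other list, called genes are named.

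Replicate numbers are shared by the groups. After removing group means, arrays of the same number correlated over 26529 probes at 0.349, 0.162 and 0.296, all above 0.1, which by the rule used here makes the numbers pairs, although different numbers reached 0.238. The number is also the position on the slide. The main fit left this pairing out, and the fit with a replicate block took it in. Alternatives were quantile normalization, normexp background correction (offset 50), 2 other filters, the deposited log2 table, spike-in scaling, the methods' t-test, a replicate block, the mean over probes and leaving out each array. No block for the slide was possible, as it coincides with the group. Promoter motifs were not analysed here.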

Additional observations from a re-analysis of the deposited data

How the results depend on the processing

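The count of 2978 probes called (1459 higher, 1519 lower) and the counts of 2 genes called higher and 1 lower moved with the setting. Quantile normalization called 5 genes higher (CCNE2, CDT1, MCM6, PCNA and RPA2) and 0 lower. Without a filter on dim probes 12 probes and 0 genes in either direction were called, and the cause was not tested. The methods' t-test called 826 probes and 0 genes in either direction after Benjamini-Hochberg adjustment. Scaling to the spike-in controls shifted the median of all probes to -0.17 and that of the 47 genes to -0.14, which is 0.03 relative to all probes. It called 949 probes (287 higher, 662 lower), 1 gene higher (CCNE2) and 0 lower. With the replicate block, 2 genes were called higher and 0 lower, CCND1 losing its call (adjusted p = 0.0633, limma), and no other call among the 47 genes changed. With 1 array left out, the probes called ran from 7 to 7335, genes higher from 0 to 12 and genes lower from 0 to 1. Genes called were 0 without alone replicate 2, alone replicate 3, mixed replicate 2 or mixed replicate 3, fits in which only 24, 7, 9 and 12 probes were called, and 1 (CCNE2) without mixed replicate 1. CCNE2 kept its call in 9 of 15 alternatives (difference 0.68 to 1.00, adjusted p 0.00416 to 0.0941), CDT1 in 7 (0.45 to 0.75, adjusted p 0.00686 to 0.144) and CCND1 in 5 (-0.75 to -0.52, adjusted p 0.00782 to 0.132). PCNA was called in 3, MCM2, MCM5, CDC6, CCNE1, E2F1 and CHEK1 in 1, which was the fit without alone replicate 1, and RRM2 in 0. None of these 11 genes changed sign under any alternative. The deposited table, the filter for all 6 arrays, normexp and the mean over probes gave counts of genes within 1.5 times. Among the related lists, spike-in scaling ended the calls of ORC4, RB1 and CDKN2B, and the methods' t-test those of ORC4, E2F8, CDKN2B and CDKN1A.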
